A study of Mus musculus with 24 samples.

Results

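Alveolar macrophages sorted as Siglec F-high from the lungs of naive mice were compared between old and young animals. The comparison used 8 of the 24 RNA-seq libraries of the series, 4 labelled young (8 to 12 weeks) and 4 labelled old (more than 18 months), all C57BL/6J and all unexposed. The libraries were taken by their labels for age, exposure and Siglec F, and not by any measured value, and all 13629 expressed genes were tested. The other 16 libraries were 4 each of young and old Siglec F-high and Siglec F-low macrophages from the same strain 28 days after asbestos. No transgene, deletion or drug was named for any group. The labels numbered the libraries within a group but did not say which animals they came from, so the p-values measure the spread between these libraries, which may be technical in part.

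Alveolar macrophages live on the airspace surface of the lung, where they take up surfactant, inhaled particles and dying cells, and they maintain themselves largely by local division. Siglec F is a sialic acid-binding lectin that marks the resident population, and cells that have newly entered from blood monocytes carry less of it. In many tissues age is accompanied by more expression of the Ink4a/Arf locus, which holds cell cycle inhibitors, and by changes in the chaperones that fold proteins in the cytosol and in the endoplasmic reticulum (ER). Macrophages show protein fragments to T cells on MHC class II molecules, whose genes are switched on together by the transactivator Ciita.

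The 8 naive libraries held 14385568 to 17994661 counts over 17069 to 18820 detected genes. Two-sided edgeR tests were made in 1 fit of 22 libraries from the 6 groups, because young replicate 3 and old replicate 3 of the asbestos Siglec F-high sort stood apart from their groups and were left out. The markers of the sort were present at both ages. Siglecf lay at 519.8 to 651 CPM (CPM, counts scaled to library size with TMM factors) in the young and 519.8 to 543 CPM in the old libraries, and its log2 difference of -0.09 ± 0.10 (SE; edgeR adjusted p 0.662) did not pass the test. Itgax (CD11c), Chil3, Mrc1 (the mannose receptor), Mertk and both chains of the GM-CSF receptor, Csf2ra and Csf2rb, did not pass it either. Across 30 markers of resident alveolar macrophages 3 were called higher and 1 lower, with a median log2 difference of 0.01, and the 3 became 1 without young replicate 3 or old replicate 4.

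Markers of other lung cells were summed per library. Of 24 T and natural killer cell genes none was called by edgeR (2 higher and 3 lower at an unadjusted p under 0.05; 2 higher with DESeq2, 1 lower with voom), and their sum was 367 to 467 CPM in young and 377 to 438 CPM in old, most of it Cd2 (2 higher calls without old replicate 4). Of 14 epithelial genes none was called (1 higher and 1 lower at an unadjusted p under 0.05; 1 higher with DESeq2 and with voom), with a sum of 406 to 469 CPM in young and 499.9 to 601 CPM in old, most of it Epcam, Cdh1 and Abca3, while surfactant protein C (Sftpc) lay at 3.2995 to 11.2 CPM in young and 3.96 to 8.41 CPM in old. Of 8 neutrophil genes S100a8 (3.41 to 11.3 CPM) and Lcn2 (0.1903 to 0.881 CPM) were higher and Csf3r (44.6 to 23.4 CPM) was lower, the sum was 67.8 to 98.7 CPM in young and 63.7 to 88.01 CPM in old, and Ly6g, Elane and Stfa2 had no count. The sums of eosinophil and mast cell genes (2.02 to 5.06 CPM in young and 1.55 to 3.97 CPM in old) and of erythroid and platelet genes (1.47 to 7.49 CPM in young and 1.7996 to 3.69 CPM in old) were near zero, and none of their 6 tested members was called by edgeR at any of these thresholds, by DESeq2 or by voom.

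Of the 13629 genes 1094 (8.03%) differed between old and young at an adjusted p under 0.05, 697 higher in old (5.11%) and 397 lower (2.91%). The counts of called members of every gene list are to be read against these shares. The higher genes had a median log2 difference of 0.70, and 277 of them changed at least 2-fold and 65 at least 8-fold. The lower genes had a median of -0.51, and 49 changed at least 2-fold and 1 at least 8-fold. In 607 of the higher and 322 of the lower genes the 4 old and 4 young values did not overlap, which was true of 12.0% of all genes tested. Without TMM scaling the split was 561 higher and 528 lower and the median of all genes was -0.04, so small shifts of whole pathways are given against that zero. With all 24 libraries in the fit 273 genes were called (2.03%), 226 higher (1.68%) and 47 lower (0.349%), and with the 8 naive libraries alone 685 (5.48%), 443 higher (3.55%) and 242 lower (1.94%). The lower count was 257 without young replicate 3 and 245 without young replicate 4.

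**Figure D1:**
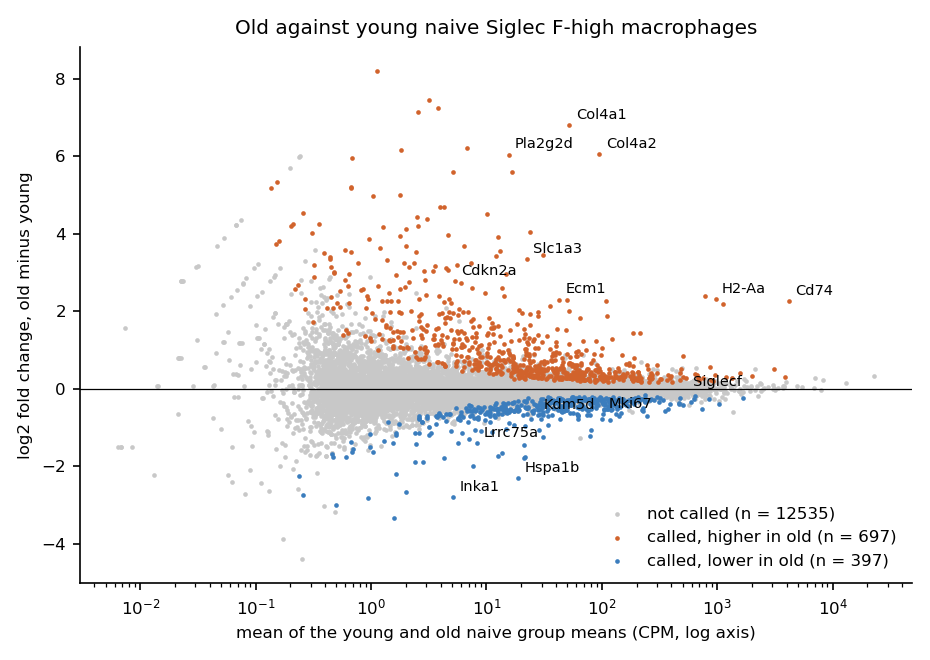
Log2 fold change of old against young naive Siglec F-high macrophages (vertical axis) against the mean of the 2 group means in CPM (horizontal log axis), 1 point per gene tested. The 697 genes called higher reach larger sizes than the 397 called lower, with Col4a1, Col4a2 and Pla2g2d near the top, and Siglecf lies at the zero line.

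Some of the largest differences were in genes of the extracellular matrix and of lipid mediators. Col4a1 and Col4a2 encode the 2 chains of the common type IV collagen, the network protein of basement membranes. Col4a2 lay at 2.996, 3.04, 2.27 and 3.05 CPM in the 4 young and 133, 208, 158 and 253 CPM in the 4 old libraries, a log2 difference of 6.05 ± 0.40 (SE; edgeR adjusted p 1.1e-09). Col4a1 lay at 0.763, 0.608, 0.516 and 1.78 CPM in young and 66.2, 122, 83.4 and 143 CPM in old, a log2 difference of 6.81 ± 0.58 (SE; edgeR adjusted p 2.83e-08). Every old library exceeded every young one by more than an order of magnitude for both genes. They sit head to head on chromosome 8 (Col4a1 at chr8:11198423-11312826 on the minus strand and Col4a2 at chr8:11312805-11449287 on the plus strand, GRCm38), and their starts lie 21 bases apart. Ecm1, a secreted matrix glycoprotein, had the smallest p of all genes tested, with 13.2, 15.2, 15.2 and 14.5 CPM in young and 63.98, 87.5, 80.6 and 52.96 CPM in old (log2 difference 2.29 ± 0.13 SE, edgeR adjusted p 8.75e-11). The young values of Ecm1 were nearly equal and none came near the old ones. Col14a1, a fibril-associated collagen, went from a mean of 1.75 to 8.14 CPM and Adamts2, which trims procollagen, from 32.4 to 72.3 CPM. Of 26 basement membrane and collagen genes tested 6 were higher, among them the laminin chain Lamc1 and nidogen Nid1, and 1 was lower, Plod1, a lysyl hydroxylase that modifies collagen (144 to 100.3 CPM, log2 difference -0.53 ± 0.07 SE, edgeR adjusted p 2.52e-05). The median of the list was 0.05, and without young replicate 1 its lower calls were 3.

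Markers of fibroblasts, endothelium and smooth muscle were low in both groups. None of 15 tested members was called by edgeR (1 higher and 2 lower at an unadjusted p under 0.05; 0 with DESeq2 and with voom). Their summed level was 15.2 to 29.8 CPM in young and 17.2 to 28.5 CPM in old, and Dcn and Lum had no count in any of the 8. A part of these cells in the collagen differences was not tested. Mmp12, macrophage elastase, varied widely among the old libraries, with 3.92, 4.39, 6.496 and 5.75 CPM in young and 13.4, 165, 18.4 and 27.1 CPM in old. All 4 old values exceeded the young ones, and old replicate 2 was far above the other 3. Without that library the log2 difference of Mmp12 fell from 3.44 to 1.92. The urokinase gene Plau was higher (11.2 to 26.9 CPM, log2 difference 1.25 ± 0.28 SE, edgeR adjusted p 0.0058) and its receptor Plaur lower (665 to 524 CPM). Of 26 matrix proteases and inhibitors 3 were higher and 1 lower, with 7 higher without young replicate 1 and 5 without young replicate 2. Plaur was not called without young replicates 3 or 4 or old replicates 3 or 4 (up to 0.0924), by edgeR adjusted p.

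Pla2g2d, a secreted phospholipase A2 found in myeloid cells, was almost silent in young and clear in old cells, with 0.436, 0.405, 0.258 and 0.747 CPM against 31.6, 21.7, 25.5 and 43.7 CPM (log2 difference 6.04 ± 0.34 SE, edgeR adjusted p 8.75e-11). Of 24 phospholipase and eicosanoid genes 5 were higher and none lower by edgeR (1 lower at an unadjusted p under 0.05, 0 with DESeq2 and with voom). The others were Ephx2, a soluble epoxide hydrolase (0.314 to 2.004 CPM), and, with small differences on high levels, thromboxane synthase Tbxas1 (0.43 ± 0.09 SE), 5-lipoxygenase Alox5 (0.31 ± 0.09 SE) and lysosomal Pla2g15 (0.23 ± 0.06 SE). With the 8 naive libraries alone 2 members were called, and 3 without young replicate 3, young replicate 4 or old replicate 1. Alox5 was not called without young replicates 3 or 4 or old replicates 1 or 3 (up to 0.0934) and Pla2g15 without young replicates 3 or 4 or old replicates 1 or 4 (up to 0.087), by edgeR adjusted p. Among the remaining genes of smallest p that were higher in old were transporters, a lectin and a nuclear receptor. The glutamate and aspartate transporter Slc1a3 was at 3.65, 4.66, 3.196 and 4.66 CPM in young and 48.8, 28.3, 46.3 and 39.8 CPM in old (log2 difference 3.34 ± 0.21 SE, edgeR adjusted p 6.81e-10). The sugar phosphate exchanger Slc37a2 went from a mean of 20.98 to 60.6 CPM. Esrrg, an orphan nuclear receptor, went from 2.09 to 23.9 CPM, with a log2 difference of 3.55 ± 0.28 (SE). Rasef, a Rab-family GTPase, went from 0.6705 to 32.9 CPM. Cpeb1, a protein that binds polyadenylation elements, went from 2.95 to 16.5 CPM, and Myo1d, a class I myosin, from 1.55 to 23.5 CPM. Fam19a5, Klhl41, Cmbl and the cation channel Trpm1 were also among the 15, with log2 differences of 4.69, 3.20, 1.98 and 3.03.

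Many MHC genes were higher in old cells. The MHC list held 27 tested genes, those of class I and II and also Cd40, Cd80 and Cd86, which are not MHC genes. Of the 27, 16 were higher in old cells, against 5.11% of all genes, and none was lower. None was lower either at an unadjusted p under 0.05 with edgeR, or with DESeq2 or voom. The median log2 difference of the list was 0.43 against -0.00074 over all genes. Class II carried the larger part: 7 of its 11 genes were called, with a median of 1.43. H2-Aa, the class II alpha chain, lay at 151, 401, 374 and 373 CPM in young and 1781, 1834, 1507 and 1316 CPM in old, a log2 difference of 2.31 ± 0.21 (SE; edgeR adjusted p 8.67e-08). Young replicate 1 was lower than the other 3 young libraries, and no young value reached the lowest old one. Cd74, the invariant chain that escorts class II molecules, followed the same order, with 655, 1910.4, 1586 and 1565 CPM against 7716, 7609, 6456 and 5666 CPM (log2 difference 2.26 ± 0.21 SE, edgeR adjusted p 1.68e-07). The chains H2-Ab1 and H2-Eb1 differed by 2.17 ± 0.22 and 2.38 ± 0.22 (SE), and the peptide-loading factor H2-DMb1 by 1.43 ± 0.11 (SE; edgeR adjusted p 1.4e-08). H2-Oa, a subunit of the modulator of that loading, went from 4.202 to 10.7 CPM. Their transactivator Ciita was at 10.4, 14.8, 29.2 and 27.8 CPM in young and 85.8, 83.6, 86.95 and 77.4 CPM in old (log2 difference 2.02 ± 0.21 SE, edgeR adjusted p 7.71e-07). Without young replicate 1 the differences of H2-Aa, Cd74, H2-Eb1, H2-Ab1 and Ciita were 2.07, 2.02, 2.15, 1.94 and 1.79, all still called. Among class I genes 9 of 13 were called, with smaller sizes. The nonclassical H2-Q6 went from 24.1 to 55.4 CPM, and the peptide transporter Tap1 from 52.6 to 66.9 CPM (log2 difference 0.35 ± 0.08 SE, edgeR adjusted p 0.00753). Reads of the similar class I genes may be shared between copies, so single class I genes are uncertain.

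The promoters of H2-Aa and H2-Eb1 show the Y box, an inverted CCAAT element of the class II promoter, ahead of the start. The stretches are the 100 bases before each RefSeq start on GRCm38.p6, at chr17:34287824-34287923 (minus strand) and chr17:34305767-34305866 (plus strand), written in the direction of transcription with the Y box (CTGATTGG) in capitals.
H2-Aa: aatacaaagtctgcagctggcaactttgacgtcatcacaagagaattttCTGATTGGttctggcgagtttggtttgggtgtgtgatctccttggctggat
H2-Eb1: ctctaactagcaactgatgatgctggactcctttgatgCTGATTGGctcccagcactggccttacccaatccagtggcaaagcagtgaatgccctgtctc
In windows of 300 bases around the start, searched on both strands, these letters were in 9 of the 12 called list members with a promoter entry. They were in 1 of 8 uncalled members, in 4.70% of all 27025 genes and in 6.60% of the tested genes with an entry. The class II genes among the 9 were H2-Aa, H2-Eb1 and H2-Oa, with the letters as written. H2-Q6, H2-Q7, H2-T23, H2-D1, H2-K1 and Tap1, of the class I part, held only the reverse complement. That of Tap1 lay 222 bases before the start, and that of H2-K1 at or just past it. The match describes the sequence and not a site in use.

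**Figure D2:**
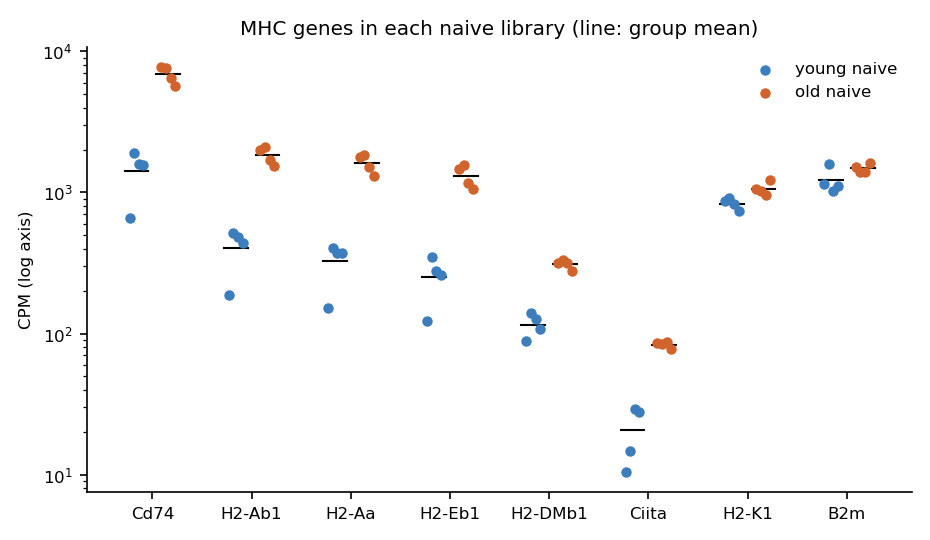
CPM (vertical log axis) of 8 MHC genes in each naive library, young in blue and old in orange, with a line at each group mean. The class II genes, Cd74 and Ciita separate the groups, with 1 low young library at 151 CPM for H2-Aa, and H2-K1 and B2m differ far less.

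B cells and dendritic cells also carry class II, and their transcripts were looked up beside it. Of 23 B and plasma cell genes 2 were higher, against 5.11% of all genes, and both were immunoglobulin heavy chains. None was called lower by edgeR (1 at an unadjusted p under 0.05, 0 with DESeq2 and 1 with voom). The median was -0.15, with a negative sign in 13. Another heavy chain, Igha, was not called but lay the other way, at 59.9 to 150 CPM in young and 15.9 to 56.1 CPM in old. Ighm lay at 31.97, 49.2, 35.8 and 32.4 CPM in young and 274, 129.7, 184 and 125 CPM in old (log2 difference 2.26 ± 0.36 SE, edgeR adjusted p 0.000192), while Ms4a1 (CD20), a surface protein of B cells, lay at 4.898 to 6.73 CPM in young and 4.53 to 8.77 CPM in old. The summed level of that list was 199.95 to 399 CPM in young and 351 to 523 CPM in old. Of 82 immunoglobulin gene segments tested 6 were called higher, again against 5.11% of all genes. Ighg2c had 3 counts over the 4 young libraries, and no fold is given for it. Of 15 dendritic cell genes Cd24a (139 to 238 CPM) and Clec9a (9.04 to 14.6 CPM) were higher and Cd209a (8.28 to 3.11 CPM) was lower, and their sum was 346 to 409 CPM in young and 468 to 516 CPM in old. Clec9a was not called without young replicate 3 or old replicate 2 (up to 0.053), by edgeR adjusted p. The 1 lower call of the list became 4 without young replicate 1 and 3 without old replicate 2, and DESeq2 and voom each called 3 lower. The replicate block put 3 higher and 4 lower, and the median of the list was -0.29. Flt3, needed for dendritic cell development, lay at 2.56 to 5.26 CPM in young and 1.85 to 3.85 CPM in old. The part of these cells in the class II difference was not tested, and in sorted cells more cells of a type and more RNA per cell cannot be told apart.

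Genes of cell division were lower in old cells. All 56 mitosis genes tested had a negative log2 difference, with a median of -0.50, and 32 of them were called lower and none higher (0 higher also at an unadjusted p under 0.05 with edgeR, with DESeq2 and with voom). Mki67, the proliferation antigen Ki-67, lay at 139, 111, 118 and 128 CPM in young and 74.3, 78.3, 82.7 and 80.3 CPM in old (log2 difference -0.65 ± 0.11 SE, edgeR adjusted p 0.000291). Top2a, the topoisomerase that untangles chromosomes, lay at 97.01, 81.4, 84.4 and 84.2 CPM and 64.7, 63.4, 55.99 and 55.6 CPM (log2 difference -0.53 ± 0.10 SE, edgeR adjusted p 0.00101). For both genes the lowest young library stood above the highest old one. The condensin subunits Smc4 and Smc2 differed by -0.45 ± 0.06 and -0.37 ± 0.08 (SE), the mitotic kinesins Kif11 and Kif23 by -0.51 ± 0.10 and -0.60 ± 0.11, and anillin (Anln), of the cleavage furrow, by -0.51 ± 0.08. Cdk1 and its partner cyclin Ccnb1, which start mitosis, were lower too (18.9 to 12.8 CPM and 7.21 to 4.73 CPM). These differences were modest on low to middling levels: the group means of the mitosis genes in young cells ran from 3.29 to 132 CPM. The count of 32 became 22 without old replicate 4, 26 with the 8 naive libraries alone and 5 with all 24 libraries. Cdk1 lost its call without old replicate 4 (up to 0.06) and Ccnb1 without young replicate 1 or old replicates 3 or 4 (up to 0.0763), by edgeR adjusted p.

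The promoters of Mki67, Top2a, Kif11 and Smc2, all lower in old, show the short CHR core (TTTGAA), a part of the cell cycle homology region found in many promoters of late cell cycle genes. Stretches of 100 bases are shown, at chr7:135716380-135716479 (minus strand), chr11:99024190-99024289 (minus strand), chr19:37376282-37376381 (plus strand) and chr4:52439056-52439155 (plus strand). They end at the base before the start, except that of Smc2, which runs from 165 to 66 bases before it, with the core or its reverse complement in capitals.
Mki67: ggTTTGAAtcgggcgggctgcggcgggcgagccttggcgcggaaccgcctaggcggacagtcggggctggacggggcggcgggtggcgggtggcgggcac
Top2a: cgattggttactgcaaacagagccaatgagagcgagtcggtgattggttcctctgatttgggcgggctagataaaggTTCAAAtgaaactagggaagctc
Kif11: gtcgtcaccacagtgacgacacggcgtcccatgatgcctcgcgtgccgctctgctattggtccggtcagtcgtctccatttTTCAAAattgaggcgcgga
Smc2: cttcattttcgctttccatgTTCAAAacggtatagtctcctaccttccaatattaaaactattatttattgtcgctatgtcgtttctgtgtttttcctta
The core was in 22 of 26 called mitosis genes with a promoter entry, in 14 of 21 that were not called and in 20.2% of all genes, so called and uncalled members both hold it often.

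Of 63 DNA replication genes 11 were lower and 1 was higher, with a median of -0.25. Rrm2, a subunit of ribonucleotide reductase, went from 37.4 to 21.9 CPM (log2 difference -0.77 ± 0.11 SE, edgeR adjusted p 8.41e-05). The histone methyltransferase Ezh2 went from 27.5 to 17.5 CPM, the atypical E2F repressor E2f8 from 8.93 to 4.93 CPM, the origin licensing factor Cdt1 from 44.1 to 34.6 CPM and the polymerase subunit Pole from 14.7 to 9.95 CPM. The flap endonuclease Fen1 went the other way, from 2.85 to 4.56 CPM (log2 difference 0.68 ± 0.19 SE, edgeR adjusted p 0.0245). The 11 lower calls became 6 without young replicate 1, young replicate 3, old replicate 2 or old replicate 4, 7 without old replicate 3, and 4 with the 8 naive libraries alone. Fen1 was not called without young replicate 3 or old replicates 1 or 2 (up to 0.0915) and Pole without young replicates 1 or 4 or old replicates 1 or 2 (up to 0.0723), by edgeR adjusted p.

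Among cell cycle inhibitors and senescence genes, both genes of the Ink4a/Arf locus were higher. Cdkn2a, the gene of p16INK4a and p19ARF, lay at 1.69, 0.5401, 1.29 and 1.84 CPM in young and 9.68, 12.7, 7.21 and 7.74 CPM in old (log2 difference 2.77 ± 0.28 SE, edgeR adjusted p 3.05e-07), and the 2 products cannot be separated in counts per gene. Its neighbour Cdkn2b (p15INK4b) lay at 1.47, 2.36, 2.11 and 1.67 CPM in young and 5.59, 9.73, 5.92 and 5.85 CPM in old (log2 difference 1.83 ± 0.24 SE, edgeR adjusted p 1.35e-05). Neither gene overlapped between the groups. Phlda3, a p53-responsive gene, went from 40.8 to 95.996 CPM (log2 difference 1.24 ± 0.21 SE, edgeR adjusted p 0.000351). Cdkn1a (p21) did not pass the test, with 447, 268, 388 and 360.4 CPM and 490.5, 307, 259 and 307 CPM (log2 difference -0.10 ± 0.15 SE, edgeR adjusted p 0.776). Its sign changed without young replicate 1 or old replicate 3. Lower in old were the nuclear lamina gene Lmnb1 (49.7 to 34.3 CPM), the inhibitor Cdkn1b (p27; 96.7 to 69.1 CPM), the pocket protein Rbl1 and cyclin Ccnd3. In all 3 of 36 genes of the list were higher and 5 lower, against 5.11% and 2.91% of all genes. The median was -0.0033, and without old replicate 3 the higher calls were 5.

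**Figure D3:**
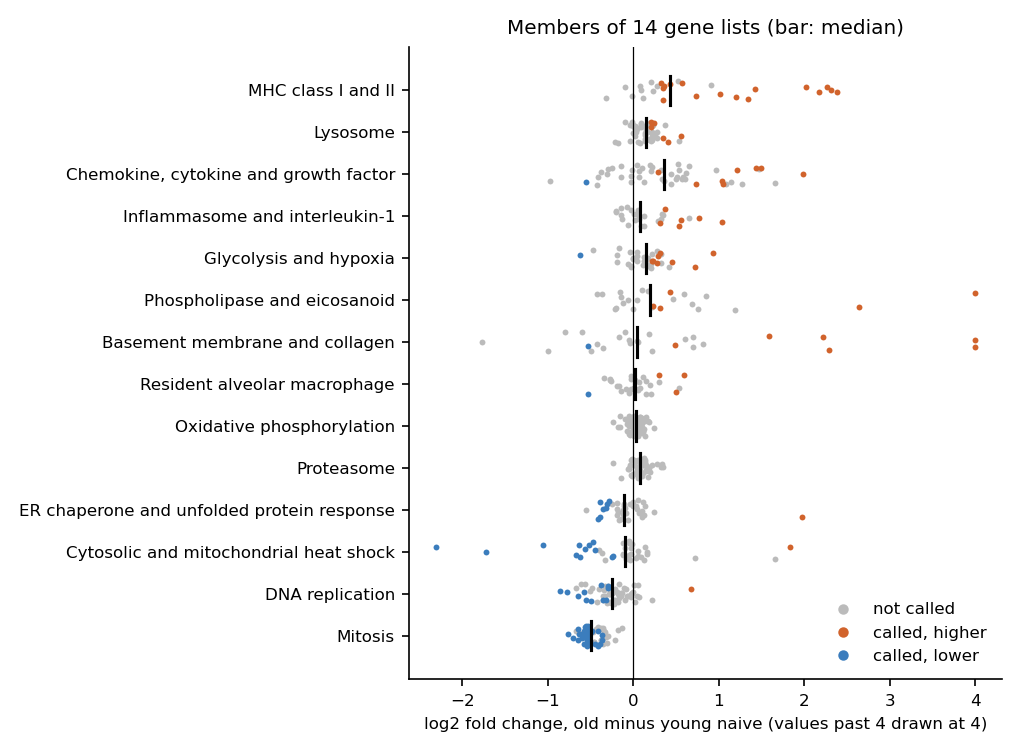
Log2 fold change of old against young naive cells for the members of 14 gene lists, 1 point per gene, grey where not called, orange where higher, blue where lower, with a black bar at each list's median. The mitosis members all lie left of zero and the MHC members reach far to the right, while oxidative phosphorylation and proteasome members have no called gene.

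Among heat shock genes the called members were lower in old cells, with 1 exception. Of 38 members 12 were lower and 1 was higher, with a median of -0.09. The 12 became 8 with the 8 naive libraries alone and 3 with all 24 libraries. Hspa1b, an inducible HSP70, lay at 12.5, 21.8, 49.03 and 42.5 CPM in young and 8.63, 5.37, 2.93 and 8.62 CPM in old (log2 difference -2.31 ± 0.36 SE, edgeR adjusted p 0.000162). The young values differed among themselves several-fold and none overlapped the old ones. Its near copy Hspa1a went from 19.2 to 5.81 CPM. The 250 bases before the starts of Hspa1a and Hspa1b are 98.8% identical, and reads of the similar transcripts could be split between them, so the values of each alone are uncertain. The co-chaperones Fkbp4 and Stip1 of HSP90 differed by -0.48 ± 0.07 (SE; edgeR adjusted p 4.33e-05) and -0.52 ± 0.08 (SE; edgeR adjusted p 0.000153). HSP90 itself (Hsp90aa1) went from 177 to 114 CPM, the HSP110 gene Hsph1 from 108 to 51.995 CPM, and the HSP40 genes Dnajb1 and Dnaja1 from 68.3 to 44.3 CPM and 91.01 to 56.96 CPM. Another HSP40, Dnaja4, was higher in old, at 2.07, 1.28, 2.73 and 2.24 CPM in young and 5.71, 7.94, 7.92 and 8.49 CPM in old (log2 difference 1.83 ± 0.24 SE, edgeR adjusted p 1.82e-05). A heat shock element (GAA, TTC and GAA, with 2 bases of any kind between each) was found in 1 of 10 lower members with a promoter entry, in 4 of 21 uncalled ones and in 0.662% of all genes. Immediate early genes held 0 called among 34 with edgeR (0 higher and 4 lower at an unadjusted p under 0.05; 0 with DESeq2, 0 higher and 2 lower with voom). Their median was -0.07, with a negative sign in 23. A part of tissue digestion or sorting in either list was not tested.

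Some ER chaperones were lower. Of 37 genes of the ER and the unfolded protein response 7 were lower, 1 was higher and 29 were not called, with a median of -0.11 and a positive sign in 13. Hspa5 (BiP), the main HSP70 of the ER, lay at 1041, 1319, 1179 and 1179 CPM in young and 937, 1029.7, 723 and 895 CPM in old (log2 difference -0.40 ± 0.11 SE, edgeR adjusted p 0.0198). The highest old library came just below the lowest young one. The other lower members were Hyou1 and Hsp90b1, also ER chaperones, the disulfide isomerase Pdia6, the secreted stress proteins Manf and Creld2, and Herpud1, of ER-associated degradation, with log2 differences from -0.41 (Creld2) to -0.28 (Hsp90b1). Fkbp11, an ER prolyl isomerase, was higher at a low level (0.593 to 2.34 CPM, log2 difference 1.98 ± 0.36 SE, edgeR adjusted p 0.000896). The 7 lower calls became 3 without old replicate 3 (4 without young replicate 2 or young replicate 3), 4 with the 8 naive libraries alone and 0 with all 24 libraries. By edgeR adjusted p, Hspa5 was not called without young replicate 2 or old replicate 3 (up to 0.0784), Creld2 without old replicates 3 or 4 (up to 0.0529), Herpud1 without young replicate 3 (up to 0.0614), Pdia6 without young replicates 2, 3 or 4 or old replicate 3 (up to 0.103) and Hsp90b1 without young replicates 2, 3 or 4 or old replicates 1, 3 or 4 (up to 0.148). At an unadjusted p under 0.05 edgeR put 11 members lower, DESeq2 called 7 and voom 11.

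The promoters of Creld2, Hspa5, Pdia6 and Hsp90b1 hold the ER stress response element (CCAAT and CCACG with 9 bases of any kind between them), the letters that ATF6 and NF-Y are known to bind. They lie at chr15:88819500-88819599 (plus strand), chr2:34771990-34772089 (plus strand), chr12:17266489-17266588 (plus strand) and chr10:86705577-86705676 (minus strand), again 100 bases each, with the element in capitals, as written or as its reverse complement. Those of Hspa5 and Pdia6 end at the base before the start, while that of Creld2 runs from 146 to 47 bases and that of Hsp90b1 from 232 to 133 bases before it.
Creld2: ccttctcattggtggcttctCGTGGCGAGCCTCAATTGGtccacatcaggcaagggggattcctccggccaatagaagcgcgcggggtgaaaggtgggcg
Hspa5: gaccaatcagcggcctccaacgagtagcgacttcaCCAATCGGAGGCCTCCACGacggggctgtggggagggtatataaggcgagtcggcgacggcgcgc
Pdia6: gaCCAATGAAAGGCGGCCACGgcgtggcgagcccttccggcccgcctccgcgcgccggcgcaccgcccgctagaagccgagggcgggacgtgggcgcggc
Hsp90b1: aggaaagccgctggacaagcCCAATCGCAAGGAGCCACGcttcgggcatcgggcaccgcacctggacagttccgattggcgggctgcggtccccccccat
These 4 were the matches among the 5 lower ER genes with a promoter entry. The element was in 5 of 24 uncalled ER genes and in 37 genes of 27025 (0.137%) in all.

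Genes of the integrated stress response were called higher about as often as all genes (5.11%). Of 43 integrated stress response genes 2 were higher, asparagine synthetase Asns (2.69 to 5.69 CPM, log2 difference 1.09 ± 0.25 SE, edgeR adjusted p 0.00685) and cysteinyl-tRNA synthetase Cars (34.9 to 41.8 CPM), and none was lower by edgeR. No member was called with all 24 or with the 8 naive libraries alone. At an unadjusted p under 0.05 edgeR put 10 higher and 4 lower, DESeq2 called 4 higher and 2 lower, and voom 8 higher and 3 lower. The higher calls were 5 without old replicate 2 and 1 without young replicate 3, young replicate 4 or old replicate 4, and the lower calls were 2 without young replicate 1 and 1 without old replicate 2. Cars was not called without young replicates 3 or 4 or old replicates 3 or 4 (up to 0.144), by edgeR adjusted p. Its central factors Atf4 and Ddit3 (CHOP) were at 193 to 216 CPM and 9.31 to 11.3 CPM in young and 170.3 to 251 CPM and 8.62 to 17.003 CPM in old, with log2 differences of 0.09 ± 0.10 (SE; edgeR adjusted p 0.68) and 0.16 ± 0.20 (SE; edgeR adjusted p 0.736). Neither passed the test, and both changed sign without old replicate 1 (-0.07 for Ddit3). None of 48 proteasome genes was called by edgeR, with 8 higher and 1 lower at an unadjusted p under 0.05, 2 higher with DESeq2 and 7 higher with voom. Without young replicate 2 edgeR called 5 of them higher, and without old replicate 3 it called 1. Of 7 transcripts of mitochondrial DNA none was called by edgeR, and none reached an unadjusted p under 0.05 or a call with DESeq2 or voom. Among 72 oxidative phosphorylation subunits none was called (1 higher at an unadjusted p under 0.05, 0 with DESeq2 and 1 with voom), with a median of 0.03, or -0.01 without TMM scaling.

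Lipid handling and lysosomal genes contained scattered higher members. Lpl, the lipoprotein lipase that is abundant in these cells, lay at 3072, 2791, 2148 and 2260.0 CPM in young and 3674, 3475, 3618 and 3728 CPM in old (log2 difference 0.50 ± 0.12 SE, edgeR adjusted p 0.00826). The desaturase Scd1 went from 49.2 to 97.6 CPM (log2 difference 0.99 ± 0.17 SE, edgeR adjusted p 0.00064) and lysosomal acid lipase Lipa from 702 to 1031 CPM. Pparg, the nuclear receptor that alveolar macrophages need to form, went from 186 to 229.6 CPM (log2 difference 0.30 ± 0.09 SE, edgeR adjusted p 0.0431), and the fatty acid-binding protein Fabp5 was lower (94.2 to 65.1 CPM, log2 difference -0.53 ± 0.15 SE, edgeR adjusted p 0.0324). By edgeR adjusted p the call of Pparg was lost without young replicates 1 or 3 or old replicates 1, 2, 3 or 4 (up to 0.13) and that of Fabp5 without young replicate 1 or old replicates 1, 2 or 3 (up to 0.139). Over all genes 5.11% were higher and 2.91% lower, the shares to set beside this and the following lists. Of 41 lipid genes 6 were higher and 1 was lower, and the 6 became 3 without young replicate 1, young replicate 3 or old replicate 3. Plin4, a lipid droplet protein, was among them, with 1 young library at 0. In cholesterol synthesis 3 of 27 were higher (Dhcr7, Lss and Nsdhl), and 1 was called without old replicate 4. In the lysosome 43 of 52 genes had a positive sign, against 6792 of 13629 over all genes. Called higher were 6 of the 52, against 5.11% of all genes, including the hydrolases Gla, Smpd1 and Man2b1 and the regulator Tfe3. That lysosomal count was 3 without old replicate 4, 13 without young replicate 1 and 0 with all 24 libraries. In these lists the edgeR call was lost for Lss without old replicate 4 (up to 0.0824), for Nsdhl without young replicates 1, 3 or 4 or old replicates 1 or 4 (up to 0.163), for Man2b1 without old replicates 1 or 4 (up to 0.066), for Tfe3 without young replicates 1 or 4 or old replicates 3 or 4 (up to 0.0724) and for Plin4 without young replicates 1, 3 or 4 or old replicate 3 (up to 0.095), with the highest adjusted p in parentheses. Among glycolysis and hypoxia genes 8 of 36 were higher, led by the glucose transporter Slc2a1 (23.8 to 39.2 CPM, log2 difference 0.72 ± 0.12 SE, edgeR adjusted p 0.000257), Pkm and Hif1a, and the glycolytic regulator Pfkfb3 was lower (64.8 to 42.1 CPM). The count of 8 became 3 without young replicate 3 or young replicate 4, 4 without old replicate 1 and 5 without old replicate 4. Of 35 NRF2 and iron genes 4 were higher, among them biliverdin reductase Blvrb (46.9 to 71.04 CPM) and the phagosomal metal transporter Slc11a1 (4.75 to 9.48 CPM), and 2 were called without old replicate 1 or old replicate 4.

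Surface receptors changed in both directions. Cd209b (SIGN-R1), a lectin for microbial sugars, lay at 2.67, 4.39, 3.87 and 4.71 CPM in young and 26.2, 22.5, 27.5 and 17.8 CPM in old (log2 difference 2.59 ± 0.20 SE, edgeR adjusted p 6.73e-09). Its relatives on the same chromosome moved the other way, Cd209a from 8.28 to 3.11 CPM and Cd209c from 0.944 to 0.269 CPM. Colec12, a scavenger receptor, was higher (25.3 to 72.4 CPM, log2 difference 1.51 ± 0.25 SE, edgeR adjusted p 0.000271), as was the RNA sensor Tlr7 (111 to 148 CPM), and the lectin Clec4a3 was lower (143 to 97.96 CPM). Of 39 lectins and pattern receptors 7 were higher and 4 lower. Without old replicate 4 these counts were 4 and 2, and the lower count was also 2 without young replicate 3 or old replicate 1. Cd209c was not called without young replicate 3 or old replicates 1 or 4 (up to 0.0949), by edgeR adjusted p. Mfge8, a bridge between dying cells and phagocytes, lay at 13.998, 12.9, 11.2 and 10.5 CPM in young and 41.8, 40.6, 38.3 and 56.5 CPM in old (log2 difference 1.87 ± 0.19 SE, edgeR adjusted p 4.3e-07), and no value overlapped. Trem2, a lipid-sensing receptor, went from 43.7 to 77.7 CPM, and the complement genes C4b and Cfb from 1.35 to 4.097 CPM and 7.02 to 16.1 CPM. The difference of Cfb fell from 1.20 to 0.75 without old replicate 4. Of 40 Fc, complement and efferocytosis genes 4 were higher and 3 lower, against 5.11% and 2.91% of all genes, with a median of 0.005. The inhibitory Fc receptor Fcgr2b and the "do not eat me" signal Cd47 were lower (193 to 142 CPM and 682 to 593 CPM), and no receptor of the list was called lower without young replicate 4 or old replicate 3. Fcgr2b lost its edgeR call without young replicates 1, 2, 3 or 4 or old replicates 2, 3 or 4 (up to 0.138) and Cd47 without young replicates 3 or 4 or old replicates 1, 2 or 3 (up to 0.101), as adjusted p.

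Of 49 chemokines, cytokines and growth factors 8 were higher and 1 lower, against 5.11% and 2.91% of all genes. Cxcl9, an interferon-induced T cell attractant, went from 3.07 to 8.29 CPM (log2 difference 1.44 ± 0.27 SE, edgeR adjusted p 0.00112), Cxcl16 from 6.095 to 10.2 CPM, the IL-18 decoy Il18bp from 3.26 to 6.71 CPM, Igf1 from 17.3 to 35.6 CPM and the fibroblast mitogen Pdgfb from 3.12 to 8.796 CPM (log2 difference 1.497 ± 0.31 SE, edgeR adjusted p 0.0029). Cxcl3, a neutrophil attractant, was not called without old replicate 4, where its difference fell from 1.99 to 1.04. Oncostatin M (Osm) was lower, at 252, 273, 265 and 259.98 CPM in young and 197, 188, 143 and 186 CPM in old (log2 difference -0.56 ± 0.14 SE, edgeR adjusted p 0.0114). In the inflammasome list 6 of 28 were higher, among them the adaptor Pycard and the DNA sensor Aim2, with 3 without young replicate 4 or old replicate 3 and none with all 24 libraries. Aim2 was not called without young replicate 4 (up to 0.0589), by edgeR adjusted p. Of 57 interferon-stimulated genes 5 were higher (against 5.11% of all genes), and 2 of these 5, Cxcl9 and Tap1, stand in other lists here too. That count was 2 without young replicate 3, young replicate 4 or old replicate 2, 3 without old replicate 1 or old replicate 4, and 9 without young replicate 2.

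Markers that set monocyte-derived macrophages apart were higher in part. Of 25 such genes 5 were higher and none was lower (4 lower at an unadjusted p under 0.05 with edgeR, 2 with DESeq2 and 2 with voom), with a median of 0.37. Cd63, a tetraspanin of late endosomes, lay at 161, 95.3, 72.7 and 70.5 CPM in young and 316, 246, 235 and 285 CPM in old (log2 difference 1.44 ± 0.19 SE, edgeR adjusted p 2.35e-05). Osteopontin (Spp1) went from 362 to 649.6 CPM (log2 difference 0.84 ± 0.19 SE, edgeR adjusted p 0.00722). The monocyte gene Ly6c2 lay at 0.517 to 0.928 CPM in young and 0.315 to 1.55 CPM in old, and Ccr2 at 9.97 to 19.4 CPM in young and 14.3 to 24.05 CPM in old. Their part in the other differences was not tested.

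Among the 15 genes of smallest p that were lower in old, Lrp5, a Wnt co-receptor, came first, with 35.9, 32.1, 33.3 and 33.1 CPM in young and 9.87, 11.3, 12.3 and 6.29 CPM in old (log2 difference -1.75 ± 0.14 SE, edgeR adjusted p 1.4e-08). The highest old library stood well below the lowest young one. Inka1, an inhibitor of the kinase PAK4, lay at 6.92, 12.4, 10.1 and 6.899 CPM and 1.12, 1.55, 1.64 and 0.818 CPM (log2 difference -2.80 ± 0.36 SE, edgeR adjusted p 1.29e-05), the largest fall among the 15. The adenosine receptor Adora3 went from 6.67 to 1.94 CPM, the actin regulator Gmfg from 43.2 to 18.2 CPM, Lrrc75a from 12.01 to 4.52 CPM and salt-inducible kinase Sik1 from 112 to 47.6 CPM. Ugcg, which makes glucosylceramide, lay at 160.03, 143, 162 and 177 CPM in young and 111, 98.3, 98.7 and 103 CPM in old (log2 difference -0.64 ± 0.07 SE, edgeR adjusted p 2.44e-06). The endolysosomal exonuclease Pld4 and the Rac-binding Swap70 differed by -0.70 ± 0.09 and -0.55 ± 0.08 (SE). Smc4, Rrm2, Anln, Fkbp4 and Plod1, named with their lists, and Y-linked Kdm5d completed the 15.

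Kdm5d, a histone demethylase gene on the Y chromosome, lay at 34.6, 32.7, 31.7 and 37.4 CPM in young and 19.9, 24.2, 20.3 and 20.8 CPM in old (log2 difference -0.68 ± 0.10 SE, edgeR adjusted p 0.000133). The helicase Ddx3y (101 to 75.3 CPM, log2 difference -0.43 ± 0.11 SE, edgeR adjusted p 0.0116) and the translation factor Eif2s3y (71.8 to 51.7 CPM, log2 difference -0.47 ± 0.13 SE, edgeR adjusted p 0.0238) were lower as well. Uty, the fourth Y-linked gene tested, went from 20.9 to 15.4 CPM (log2 difference -0.44 ± 0.14 SE, edgeR adjusted p 0.0508). All 4 have X-linked relatives with which reads could be shared. Of the other members of the sex-linked list, Xist had 5 counts over the 8 naive libraries and Tsix had 0. Without old replicate 4 the list held 1 call. The call of Ddx3y by edgeR adjusted p was lost without old replicate 4 (up to 0.0529), and that of Eif2s3y without young replicate 2 or old replicates 1, 3 or 4 (up to 0.0824). Among clock genes 5 of 19 were higher and Per1 was lower, and the 5 became 1 without old replicate 4, 2 without young replicate 3 and 3 without young replicate 1, young replicate 2, young replicate 4 or old replicate 1. Per1 lost its edgeR call without young replicates 1, 3 or 4 or old replicates 1, 2, 3 or 4 (up to 0.132), as adjusted p.

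The chromosomal neighbours of the 30 genes of smallest p were looked up. Of 40 tested neighbours 8 were called, against 8.03% of all genes, and 6 of the 8 in the direction of the gene beside them. Col4a1 and Col4a2 were such a pair, as were Myo1d and Tmem98, which differed by 4.96 ± 0.66 (SE). Ahnak2, next to Pld4, differed in the opposite direction from it (1.29 ± 0.20).

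The same ages were compared after asbestos, in other libraries and in cells of both sorts. There 997 genes (7.32%) differed by age in Siglec F-high macrophages, 660 higher (4.84%) and 337 lower (2.47%). The 997 became 496, 567 and 551 without young replicate 2, young replicate 4 and old replicate 1 of that group. In Siglec F-low macrophages 983 genes (7.21%) differed, 518 higher (3.80%) and 465 lower (3.41%). Of the 697 genes higher in naive old cells 371 were also higher after asbestos in the Siglec F-high sort, which is 53.2% of the naive and 56.2% of the asbestos list, and 2 were lower. Of the 397 lower genes 149 were lower there too (37.5% and 44.2%) and none was higher by edgeR, all in a fit where the asbestos comparison had 3 libraries a side. In the Siglec F-low sort 223 of the higher (31.99% and 43.1%) and 133 of the lower genes (33.5% and 28.6%) were shared, with 4 and 0 called in the opposite direction. All 15 named higher genes were called higher in both asbestos sorts, and 12 of the 15 named lower genes were called lower in each.

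**Figure D4:**
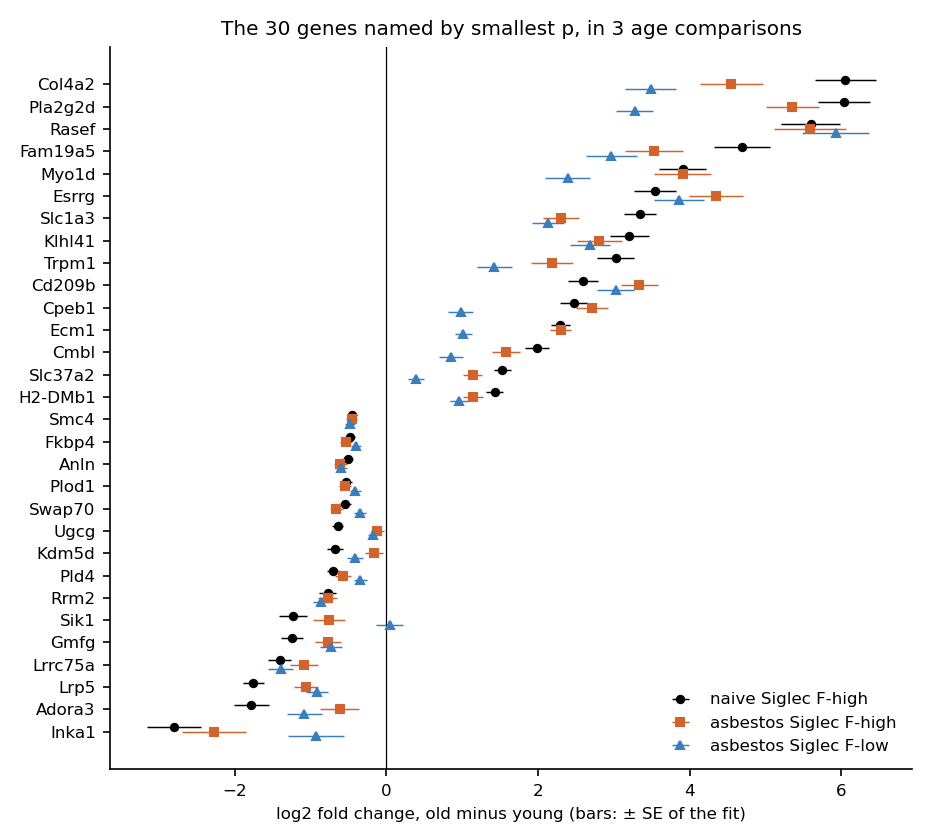
Log2 fold change of old against young (± SE of the fit) for the 30 genes named by smallest p, in naive Siglec F-high, asbestos Siglec F-high and asbestos Siglec F-low macrophages. The 15 higher genes lie right of zero in all 3 comparisons, and most of the 15 lower genes lie left of it.

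Some genes called by age in naive cells were not called in the asbestos Siglec F-high sort, and 4 of them are given by value. Ugcg differed by -0.12 ± 0.08 (SE; edgeR adjusted p 0.49) after asbestos in the Siglec F-high sort, against -0.64 ± 0.07 (SE) in naive cells. Scd1 differed by 0.07 ± 0.20 (SE; edgeR adjusted p 0.903) and Slc2a1 by 0.35 ± 0.13 (SE; edgeR adjusted p 0.112) in that sort. For Hspa1b the value was -1.31 ± 0.50 (SE; edgeR adjusted p 0.122). The test of the difference itself, described next, did not call any of these 4 genes. Mitosis genes were called lower by age in all 3 settings, with 38 of 56 called in asbestos Siglec F-high and 49 of 56 in asbestos Siglec F-low cells.

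The interaction of age with asbestos within the Siglec F-high sort called 2 of 13629 genes (0.0147%), Ide and Gca, and 703 had an unadjusted p under 0.05. Ide, the insulin-degrading enzyme (chr19:37268743-37337852, GRCm38), lay at 61.5, 56.98, 64.03 and 65.3 CPM in young naive and 93.5, 97.03, 106 and 97.9 CPM in old naive cells (log2 difference 0.67 ± 0.06 SE, edgeR adjusted p 1.12e-07). After asbestos the order was reversed, with 108, 100.1 and 105 CPM in young and 70.6, 67.9 and 68.8 CPM in old Siglec F-high cells (log2 difference -0.60 ± 0.07 SE, edgeR adjusted p 1.13e-05), and the Siglec F-low sort gave -0.56 ± 0.06 (SE; edgeR adjusted p 5.53e-06). No library crossed between the ages in any of the 3 settings. The difference of the age differences was -1.27 ± 0.09 (SE; edgeR adjusted p 5.02e-08). Gca, the calcium-binding protein grancalcin, went from 20.97 to 31.7 CPM in naive cells (log2 difference 0.59 ± 0.16 SE, edgeR adjusted p 0.0195) and differed by -0.84 ± 0.18 (SE; edgeR adjusted p 0.00427) after asbestos, with an interaction of -1.43 ± 0.24 (SE; edgeR adjusted p 0.0269). With all 24 libraries in the fit neither interaction was called, and 1 gene was called without young replicates 2, 3 or 4 or old replicate 4 of the naive groups, or without young replicates 2 or 4 or old replicates 1 or 2 of the asbestos group. The naive difference of Gca was not called without young replicate 2 or old replicate 4 (up to 0.0756), by edgeR adjusted p. Fgfbp3, a carrier of fibroblast growth factors, was higher in naive old cells (0.563 to 1.92 CPM) and differed by -0.35 ± 0.41 (SE; edgeR adjusted p 0.713) after asbestos, and its interaction of -2.12 ± 0.54 (SE; edgeR adjusted p 0.404) did not pass the test.

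**Figure D5:**
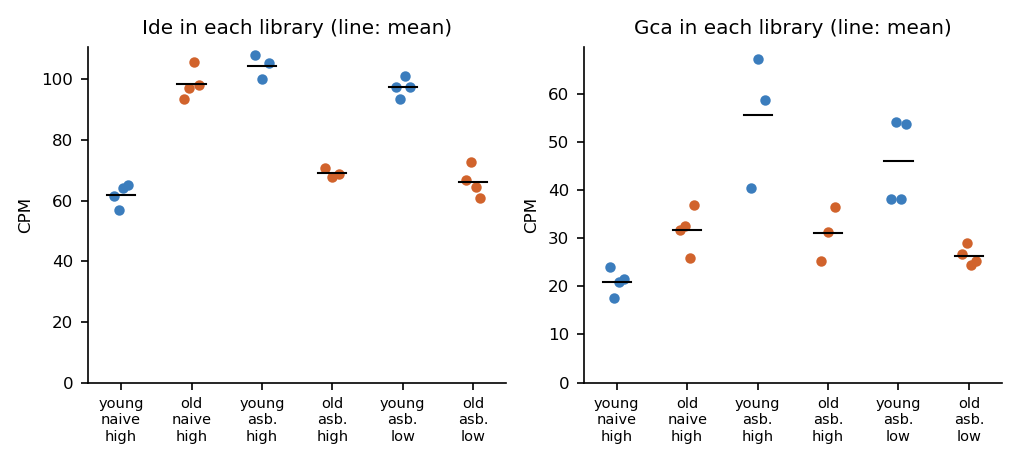
CPM of Ide (left) and Gca (right) in each library of the fit by age, exposure and Siglec F sort, young in blue and old in orange, with a line at each group mean. Ide is at 57.0 to 65.3 CPM in young and 93.5 to 106 CPM in old naive cells, and the ages change places in both asbestos sorts.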

How the data were processed

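The 8 naive libraries were sequenced as poly(A)-selected RNA on a NextSeq500, per the labels. The authors deposited raw counts per Ensembl gene for 43430 gene IDs in 24 columns, all matched to samples by title, with 0 columns of other series. The submitters' processing notes name bcl2fastq 2.19.1, FastQC, Trimmomatic 0.36, STAR 2.6.0, HTSeq 0.11.2 and mm10. Which strand setting and annotation HTSeq used is not given in the sources used here. Symbols were found for 42462 IDs. Positions came from GENCODE M21 (GRCm38) and promoter windows from RefSeq (GRCm38.p6), where each had an entry for the gene.

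Counts were filtered with filterByExpr (minimum count 10, minimum total 15), scaled with TMM and tested with edgeR 4.0.16 (glmQLFit and glmQLFTest, R 4.3.3), with Benjamini-Hochberg adjustment over 13629 genes and calls at 0.05. CPM values are counts relative to the TMM-scaled library size, and a mean is given over 4 libraries. Counts compared between genes are not per length. limma 3.58.1 and DESeq2 1.42.0 were alternatives. On simulated counts for 13353 genes of this comparison the test recovered 65.2% of 66 genes changed 1.5-fold, 78.5% of 65 changed 2-fold and 90.9% of 66 changed 4-fold, and called 5 unchanged genes. Those counts were drawn from the model of the test, with the spread edgeR estimated from the 22 libraries and no outlying library. The rates hold under that model and do not measure false calls in the real libraries.

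The comparison, gene lists and tests were chosen with earlier results of these data known. Genes were named as the 15 higher and 15 lower of smallest p without overlap between groups, unnamed gene models and immunoglobulin segments left out; the called members of each list, up to 5 of smallest p; 18 fixed genes; and the neighbours of the 30. Other genes given with values, among them H2-Ab1, Ciita, H2-Oa, Pdia6, Hsp90b1, Hsph1, Hspa1a, Dnaja1, Dnajb1, Ide, Gca, Fgfbp3, Lmnb1, Cdkn1b, Cdk1, Ccnb1, Fen1, Cd209c, Tmem98, Ahnak2, Fcgr2b, Cxcl3, Osm, Smc2, Kif11 and Uty, were chosen after their values were seen. The median standard error of a log2 difference was 0.13. Lists of T and natural killer cells, neutrophils, eosinophils, erythroid cells, epithelium and mitochondrial transcripts were looked up too. Some members of the lists are not reported here by name.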

Additional observations from a re-analysis of the deposited data

Results flagged for a closer look

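In 334 groups of 4 naive libraries, 1 library stood apart from the other 3 by Dixon's criterion in 21 cases, and chance gives about 1 in 20. Old replicate 4 accounted for 7 of these. In that library Trpm1 was highest at 7.61 CPM, Smpd1 at 37.8, Asns at 8.99, Dhcr7 at 92.5, Cxcl3 at 24.3 and Car4 at 821 CPM, and Per1 was lowest at 168 CPM. In young replicate 1, H2-Aa was lowest at 151 CPM against 373 to 401 CPM in the other 3, while Ahnak2 (111 CPM), Colec12 (39.8 CPM) and Marco (644 CPM) were highest. In young replicate 2, Per1 was lowest at 191 CPM and Chil3 highest at 15604 CPM. In young replicate 3, Col4a2 was lowest at 2.27 CPM and Smc2 at 38.8 CPM. In young replicate 4, C4b was highest at 1.90 CPM. In old replicate 1, Col14a1 was highest at 12.1 CPM and Pparg at 244 CPM. In old replicate 2, Mmp12 was highest at 165 CPM, against 13.4 to 27.1 CPM in the others, and Cdkn2b at 9.73 CPM. In old replicate 3, Hif1a was lowest at 118 CPM.

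The age difference changed with asbestos in the Siglec F-high sort, by the interaction test, in Ide (-1.27, edgeR adjusted p 5.02e-08) and in Gca (-1.43, edgeR adjusted p 0.0269).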

How the results depend on the processing

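No gene named as called, and no named gene called under an alternative, changed direction under any alternative run. Among named genes that were not called, 7 changed sign under at least 1 alternative: Marco (-0.26, but 0.70 without young replicate 1, 0.35 with voom and 0.02 with the block in the 8 naive libraries), Mrc1, Csf2rb, Car4, Cdkn1a, Atf4 and Ddit3. The naive comparison called 1094 genes (697 higher, 397 lower). All 24 libraries gave 273 (226 and 47), the 8 naive libraries alone 685 (443 and 242), and limma voom with quality weights 1894 (1098 and 796). RLE, upper quartile, no TMM, no filter, a stricter filter and DESeq2 gave 1070, 1078, 1089, 1103, 1087 and 1342. Leaving out 1 library gave 742 to 1160 in all, 497 to 731 higher and 245 to 449 lower, with 257 lower without young replicate 3 and 245 without young replicate 4. Same-number correlations between young and old naive libraries were -0.02, 0.14, 0.09 and -0.05. Between the Siglec F-high and F-low asbestos libraries of the same age they were 0.09 to 0.32. No values for unequal numbers stand beside them, so they cannot decide whether equal numbers mark pairs. A replicate block gave 1476 calls (876 and 600), and in the 8 naive libraries alone, an alternative chosen after seeing the data, 934 (561 and 373). Age after asbestos called 997 genes in Siglec F-high cells, 641 with 24 libraries, 1963 with voom, 1347 with the block and 496 to 1122 without 1 library, with 567 without young replicate 4 and 551 without old replicate 1 of that sort. In Siglec F-low cells it called 983, 174 with 24 libraries, 1240 with the block and 661 to 1129 without 1 library. The interaction called 2 genes, 0 with 24 libraries, 16 without the filter, 13 with DESeq2, 2 with the block and 1 to 3 without 1 library.

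Of 154 called genes named, 71 kept their call under every alternative run and 113 without any 1 of the 8 naive libraries. The other 41 lost it without at least 1 naive library. Examples are Hspa5 (edgeR adjusted p up to 0.0784), Hsp90b1 (0.148), Pparg (0.13), Per1 (0.132) and Cxcl3 (0.124, without old replicate 4). Depth limits low genes most: Ighg2c, Plin4 and Npas2 had few or no counts in some young libraries.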
